A study of Mus musculus with 12 samples.

Results

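The circular RNAs of 3 host genes, Nfix, Elf2 and Gigyf2, were examined in 4 mouse cell lines. The members are all rows of the deposited circRNA tables that name exactly one of these genes as host: 24 of 13474 circRNAs, of which 5 come from Nfix, 7 from Elf2 and 12 from Gigyf2. The genes were chosen by the measured abundance of their leading circRNAs in these libraries, so the levels of these circRNAs across the lines are given as a description, without a test. Differences between lines rest on the deposited counts of the same libraries and are not independent of that choice.

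The lines were 4T1, a breast cancer cell line, set against Eph4-ev, a breast epithelial line, and B16F10, a melanoma line, set against Melan-a, a melanocyte line. Each line had 3 libraries, and the labels give no treatment, time or genetic change. Each lineage holds 1 tumour line and 1 non-tumour line, so the tumour origin of a line and its other traits cannot be told apart. The labels do not say whether the libraries of a line came from separate cultures, and p-values measure the spread between these libraries, which may be technical.

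A circRNA forms when the splicing machinery joins the donor site at the end of an exon to the acceptor site at the start of the same or an earlier exon. The closed product has no free ends and resists exonucleases such as RNase R, with which the RNA was treated here, and circRNAs often last longer than linear transcripts. A read across the back-spliced junction identifies the circle but not the exons inside it. Nfix encodes a nuclear factor I transcription factor, Elf2 an ETS-domain transcription factor, and Gigyf2 a GYF-domain protein that works with the cap-binding protein 4EHP in repressing translation.

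The junctions of the 3 dominant circRNAs and of 4 tested minor ones show which splice sites were joined. The first 20 bases, in lower case, end the last exon of the circle and the 20 capitals open its first exon (GENCODE M21 transcripts, GRCm38, transcript strand).

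Nfix exon 2: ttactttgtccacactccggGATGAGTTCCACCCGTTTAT
Nfix exons 2 to 8: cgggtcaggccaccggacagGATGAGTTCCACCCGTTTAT
Elf2 exons 2 to 4: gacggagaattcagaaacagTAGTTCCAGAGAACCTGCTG
Elf2 exons 2 to 5: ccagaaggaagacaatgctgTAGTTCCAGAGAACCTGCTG
Elf2 exons 2 to 3: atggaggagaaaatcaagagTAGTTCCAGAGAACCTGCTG
Gigyf2 exons 4 to 8: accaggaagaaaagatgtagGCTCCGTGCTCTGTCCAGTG
Gigyf2 exons 4 to 6: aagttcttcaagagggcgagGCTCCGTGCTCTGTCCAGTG

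Within each host the capitals printed here are identical: these circRNAs share 1 acceptor and differ in the donor. This follows from which junctions are printed. Nfix exons 3 to 8, which was also tested, opens at another acceptor.

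The Nfix circRNA is exon 2 alone, at chr8:84771784-84772315 on the minus strand (mm10), within a gene that spans 84699876 to 84800344. It is 532 bases long, all coding, without the start codon annotated in the transcript used. The Elf2 circRNA joins exons 2 to 4 at chr3:51308050-51326035, minus strand, in a gene spanning 51252720 to 51340663. Of its 484 bases, 238 are coding, and the annotated start codon lies inside it. The Gigyf2 circRNA joins exons 4 to 8 at chr1:87364104-87380008, plus strand, in a gene spanning 87326998 to 87450796, and its 494 bases are all coding. These sizes lie near the median of 482 bases over the 12708 circRNAs of the series whose ends match exons of 1 transcript. Only 4.27% of those consist of 1 exon, as that of Nfix does.

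Exon numbers, coding parts, start codons and introns are those of 1 annotated transcript chosen for each circle. Protein-coding transcripts came first, then those with the longest coding part. Nfix has 8 annotated transcripts, Elf2 13 and Gigyf2 23, and in others these values may differ. In the transcripts used, the intron downstream of each dominant circle was long: 43816 bases for Nfix, 41183 for Elf2 and 23658 for Gigyf2, against a median of 5446. These values exceed those of 94.8%, 94.2% and 87.4% of the matched circRNAs. The upstream introns of the same transcripts were not all long: 1038 bases for Nfix, 14378 for Elf2 and 9617 for Gigyf2. They exceed those of 8.60%, 67.3% and 57.0% of the matched circRNAs. None of the 3 circle lengths is divisible by 3, which holds for 37.6% of matched circRNAs. Read around the circle from an ATG, the longest frame was 219 codons in Nfix, which passes the junction and runs more than once around, 87 codons in Elf2 and 155 in Gigyf2. That of Elf2 opens at the annotated start codon of the transcript used, and 14.4% of matched circRNAs contain such a codon. Each of the 3 frames crosses the junction. These are properties of the letters, and translation was not measured here.

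**Figure D1:**
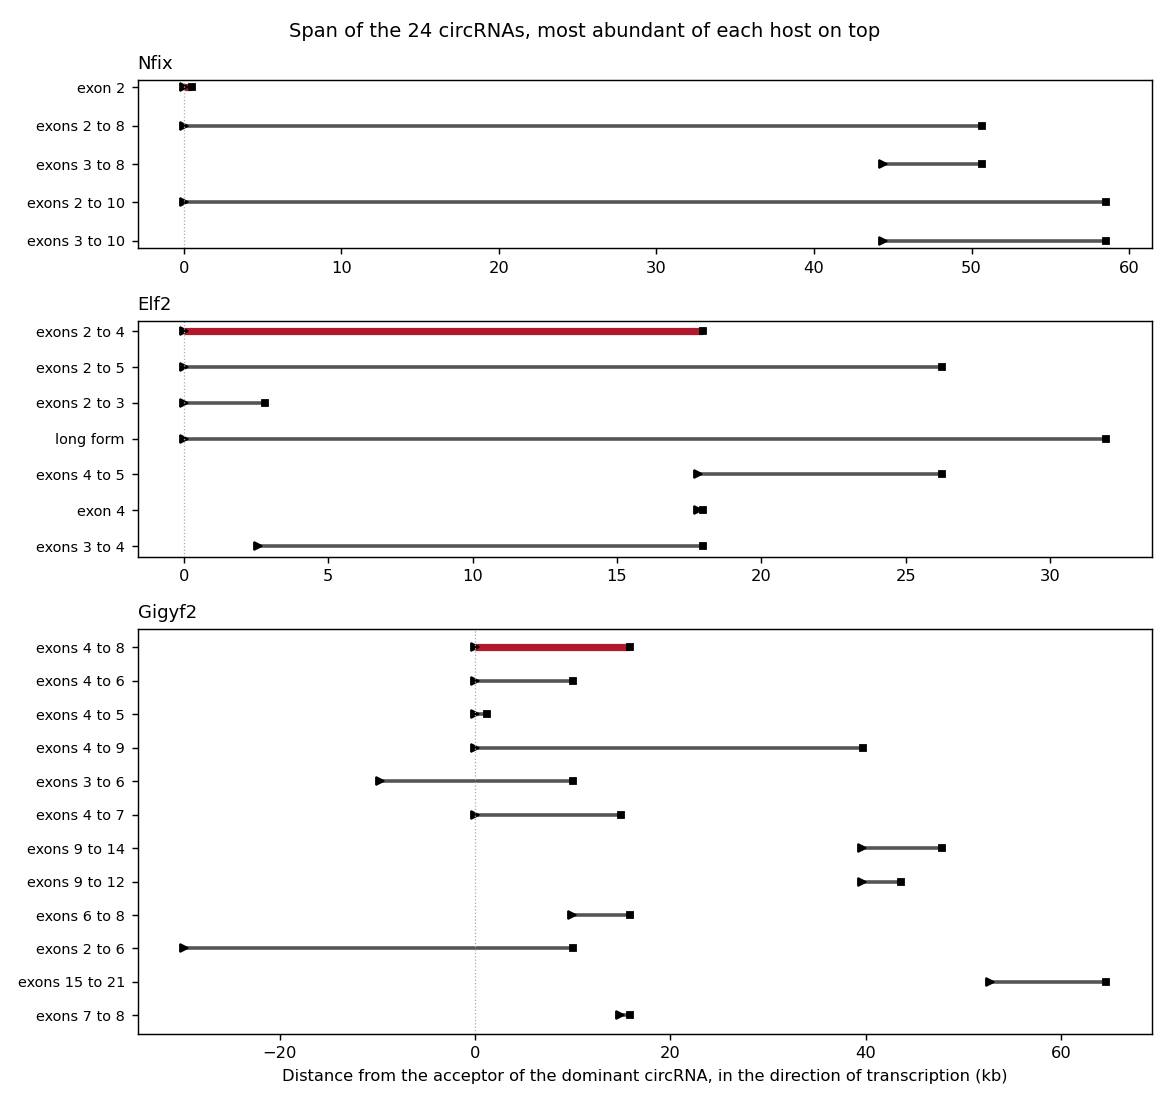
Span of the 24 circRNAs along their hosts. The horizontal axis is the distance in kb from the acceptor of the dominant circRNA in the direction of transcription, each bar is a circRNA, the triangle its acceptor and the square its donor, and the dominant circRNA is drawn in red. The dotted line at 0 shows that 3 of 5 Nfix, 4 of 7 Elf2 and 5 of 12 Gigyf2 circRNAs start at the acceptor of the dominant one.

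The other members used further acceptors and donors. The 5 Nfix circRNAs use 2 acceptors and 3 donors, the 7 of Elf2 use 3 acceptors and 4 donors, and the 12 of Gigyf2 use 7 acceptors and 8 donors. A median host of the series has 2 circRNAs. Of 4450 hosts, 18.2% have as many as Nfix or more, 10.3% as many as Elf2 and 2.63% as many as Gigyf2. The hosts were chosen for abundant circRNAs, and their number of circRNAs may not be independent of that choice. Reads were still concentrated on the dominant acceptor, which took 99.2 ± 0.262% of Nfix reads in 4T1 and 99.1 ± 0.976% in Eph4-ev (SD over 3 libraries each). For Elf2 it took 99.1 ± 0.279% in B16F10 and 99.6 ± 0.174% in Melan-a, while the dominant donor took 73.9 ± 2.78% in B16F10 and 81.7 ± 1.64% in Melan-a (SD over 3 libraries each). For Gigyf2 the dominant acceptor took 96.8 ± 4.01% in 4T1 and 98.7 ± 1.24% in Eph4-ev (SD over 3 libraries each). Its dominant donor took 84.6 ± 6.45% in 4T1 and 95.2 ± 1.04% in Eph4-ev. Elsewhere the dominant donor was more concentrated, as means over 3 libraries. For Nfix it took 97.8% in 4T1, 97.3% in Eph4-ev, 100% in B16F10 and 92.1% in Melan-a. For Gigyf2 it took 95.6% in B16F10 and 95.4% in Melan-a, and for Elf2 89.1% in 4T1 and 88.6% in Eph4-ev. The share of the acceptor follows in part from that of the dominant circRNA, which is counted in both.

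Depth was low, and 4T1 was uneven. Totals of junction reads per library ranged from 15572 to 44625 in 4T1 and from 50648 to 56649 in Eph4-ev, and from 16697 to 20011 in B16F10 and from 25072 to 33557 in Melan-a. The 24 circRNAs together took 2.86% to 3.27% of all junction reads in 4T1 libraries and 2.38% to 2.90% in Eph4-ev, and 4.25% to 4.57% in B16F10 and 5.74% to 6.64% in Melan-a. Levels are in RPM, each read scaled to the junction reads of its own library, so that a smaller share of the library, fewer cells of a type and less RNA per cell cannot be told apart. As a check of the lines, hosts of the epithelial marker list with any circRNA read were 5 of 12 in the mammary table (Cdh1, Epcam, Esrp1, Grhl2, Tjp1) and 2 of 12 in the melanocyte table. Of the melanocyte list, 10 of 12 had reads in the melanocyte table, Tyr, Tyrp1, Dct, Pmel and Mitf among them, with summed levels of 10978 to 12843 RPM in B16F10 and 5684 to 9655 RPM in Melan-a. Of the same list, 1 of 12 had reads in the mammary lines, Mitf, at 0 RPM in all 4T1 libraries and at most 88.3 RPM in Eph4-ev. None of 10 immune hosts had a read in either table, and 2 of 12 fibroblast and mesenchymal hosts had reads in each, at 0 RPM in 4T1 and 118 to 177 RPM in Eph4-ev, and 99.9 to 120 RPM in B16F10 and 0 to 359 RPM in Melan-a. How these lists bear on the results was not tested.

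**Figure D2:**
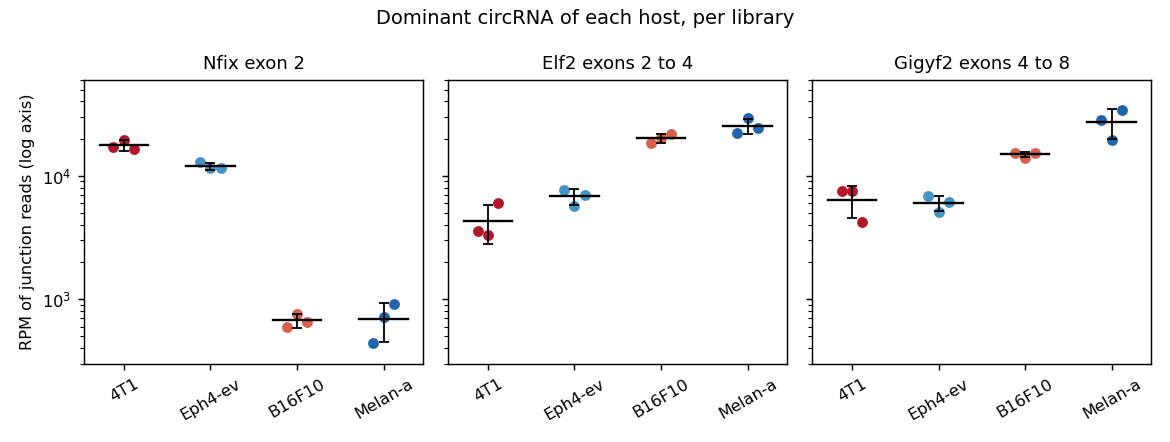
Level of each dominant circRNA in every library. The vertical axis is RPM of junction reads on a log scale, points are libraries, the horizontal line is the mean of 3 libraries and the bar is ± SD. Nfix exon 2 averaged 17749 RPM in 4T1 and 675 RPM in B16F10, while Elf2 exons 2 to 4 and Gigyf2 exons 4 to 8 were highest in the melanocyte lineage.

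The 3 dominant circRNAs did not follow one order across the lines, as the plot of levels per library shows. The lineages were deposited as separate tables, and RPM is scaled within each library. Levels are set side by side between lineages without a test, since the hosts were chosen by their levels.

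Nfix exon 2 was far more abundant in the mammary lines. It stood at 17210, 19679 and 16359 RPM in 4T1 (268, 349 and 730 reads), and at 12873, 11492 and 11611 RPM in Eph4-ev (652, 651 and 645 reads). In the other lineage it stood at 600, 767 and 659 RPM in B16F10 (12, 13 and 11 reads), and at 439, 715 and 914 RPM in Melan-a (11, 24 and 23 reads). It was the most abundant circRNA of 4T1 and ranked 2 in Eph4-ev, but ranked 243 in B16F10 and 228 in Melan-a. From high to low the order was 4T1, Eph4-ev, Melan-a, B16F10, and the ranges of the last pair overlapped. The mean in 4T1 was 26.3 times that in B16F10.

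The lineages stood the other way round for Elf2 exons 2 to 4. It stood at 3596, 3327 and 6073 RPM in 4T1 (56, 59 and 271 reads), and at 7740, 5702 and 6985 RPM in Eph4-ev (392, 323 and 388 reads). Its values were 18440, 20244 and 21800 RPM in B16F10 (369, 343 and 364 reads), and 22336, 29293 and 24248 RPM in Melan-a (560, 983 and 610 reads). It ranked 1 in B16F10 and 2 in Melan-a, against 10 in 4T1 and 8 in Eph4-ev. The order was Melan-a, B16F10, Eph4-ev, 4T1, and only the ranges of Eph4-ev and 4T1 overlapped. The mean in Melan-a was 5.84 times that in 4T1.

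The circle of Gigyf2 exons 4 to 8 was abundant in all 4 lines. It stood at 7513, 7499 and 4235 RPM in 4T1 (117, 133 and 189 reads), and at 6851, 5119 and 6139 RPM in Eph4-ev (347, 290 and 341 reads). Its values were 15342, 13988 and 15392 RPM in B16F10 (307, 237 and 257 reads), and 28279, 19340 and 34066 RPM in Melan-a (709, 649 and 857 reads). It ranked 4 in 4T1 and 10 in Eph4-ev, and 3 in B16F10 and 1 in Melan-a. The ranges of 4T1 and Eph4-ev overlapped, those of every other pair of lines did not, and the mean in Melan-a was 4.24 times that in 4T1.

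In 4T1 against Eph4-ev, Elf2 exons 2 to 4 fell and the dominant circRNAs of Nfix and Gigyf2 did not pass the test. Of the 22 circRNAs of these hosts in the mammary table, 8 had enough reads to be tested and 1 was called at an adjusted p under 0.05, where 17.4% of all 1869 tested circRNAs were called (5.99% higher and 11.4% lower in 4T1). The circle of Elf2 exons 2 to 4 averaged 4332 ± 1514 RPM in 4T1 and 6809 ± 1030 RPM in Eph4-ev (SD over 3 libraries each), and its log2 fold was -0.83 ± 0.26 (SE, adjusted p = 0.0477 in edgeR). The highest 4T1 library lay above the lowest Eph4-ev library. Over all tested circRNAs the median log2 fold was -0.22, and -0.01 when libraries were scaled by total reads alone. The fold of Elf2 exons 2 to 4 lay 0.61 below that median under both scalings, but its adjusted p under total reads was 0.0936. With no filter on low counts the fold was -1.12 (adjusted p = 1.43e-05 in edgeR), but the median over all tested circRNAs was then -1.09, and the fold minus the median was -0.024.

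The call rested on a narrow margin. It was also made by DESeq2 (adjusted p = 0.00548) and limma-voom (0.0206). In edgeR it was made with RLE factors (0.0266), a minimum count of 10 (0.0458) and a replicate block (0.00109). 4T1 replicate 3, with 44625 junction reads, held 6073 RPM, and the replicates with 15572 and 17735 reads held 3596 and 3327 RPM. Without replicate 3 the log2 fold was -1.36 ± 0.18 (SE, adjusted p = 0.00100 in edgeR). The call was lost without 4T1 replicate 1 (adjusted p = 0.0974 in edgeR) or replicate 2 (0.0876), and without Eph4-ev replicate 1 (0.0714), 2 (0.0922) or 3 (0.0773). With all libraries thinned to the lowest total of the lineage the log2 fold was -0.67 (adjusted p = 0.13 in edgeR), which lay 0.64 below the median and did not pass.

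Nfix exon 2 averaged 17749 ± 1724 RPM in 4T1 and 11992 ± 765 RPM in Eph4-ev (SD over 3 libraries each), with a log2 fold of 0.33 ± 0.12 (SE, adjusted p = 0.0814 in edgeR). The 3 libraries of 4T1 lay above the 3 of Eph4-ev, and the fold lay 0.55 above the median of all tested circRNAs. Under total reads alone it was 0.56 (adjusted p = 0.0139 in edgeR), and it was also called with a minimum count of 10 (0.0246) and by limma-voom (0.0103). It did not pass by DESeq2 (0.0579), with RLE factors (0.112), after thinning (0.128) or with a replicate block (0.218), nor without any 1 of the libraries (0.143 to 0.399). With no filter the fold was 0.042 (0.876). Gigyf2 exons 4 to 8 averaged 6416 ± 1889 RPM in 4T1 and 6036 ± 871 RPM in Eph4-ev (SD over 3 libraries each). Its log2 fold of -0.18 ± 0.20 (SE, adjusted p = 0.604 in edgeR) was 0.04 above the median and turned to 0.07 under total reads alone.

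Summed over all circRNAs of a host, 2 of the 3 hosts passed in 4T1 against Eph4-ev, where 17.5% of 1515 tested hosts did (6.86% higher and 10.6% lower in 4T1). Elf2 fell, with 59, 79 and 277 reads across 4T1 against 430, 385 and 428 in Eph4-ev (log2 change -0.78 ± 0.21 SE with an adjusted p of 0.0167 in edgeR). Nfix rose, with 275, 352 and 753 reads across 4T1 against 676, 659 and 667 in Eph4-ev (log2 change 0.41 ± 0.13 SE with an adjusted p of 0.0395 in edgeR). Gigyf2 did not pass (log2 change 0.07 ± 0.19 SE with an adjusted p of 0.842 in edgeR). The Elf2 call was lost without Eph4-ev replicate 2 (adjusted p = 0.0798) and after thinning, where the log2 fold was -0.55 (0.193). The Nfix call was lost without 4T1 replicate 2 (0.12) or 3 (0.0813), without Eph4-ev replicate 1 (0.0782), 2 (0.25) or 3 (0.206), and with RLE factors (0.0526), a replicate block (0.0725) or no filter (0.387). These sums hold mostly reads of the dominant circRNAs and are not separate evidence.

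In B16F10 against Melan-a it was Gigyf2 exons 4 to 8 that fell. Of the 22 listed circRNAs of these hosts, 17 had reads and 7 could be tested, and 1 was called, where 10.9% of 874 tested circRNAs were (5.03% higher and 5.84% lower in B16F10). This Gigyf2 circle averaged 14907 ± 796 RPM in B16F10 and 27228 ± 7419 RPM in Melan-a (SD over 3 libraries each), with a log2 fold of -0.93 ± 0.21 (SE, adjusted p = 0.0123 in edgeR). All B16F10 libraries lay below all Melan-a libraries, and the fold lay 0.97 below the median of all tested circRNAs, which was 0.04. With all libraries the call held under each alternative of scaling, filter, model, block and thinning (highest adjusted p = 0.0452, edgeR with no filter). The call did not hold when B16F10 replicate 1 (adjusted p = 0.111 in edgeR), 2 (0.128) or 3 (0.103) was left out, nor without Melan-a replicate 3 (0.0661), while the fold stayed between -1.12 and -0.77.

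The Elf2 circle of exons 2 to 4 averaged 20162 ± 1682 RPM in B16F10 and 25292 ± 3595 RPM in Melan-a (SD over 3 libraries each). The libraries did not overlap, but the log2 fold of -0.40 ± 0.19 (SE, adjusted p = 0.226 in edgeR) did not pass. Nfix exon 2, at 675 ± 85.0 RPM in B16F10 and 689 ± 239 RPM in Melan-a (SD over 3 libraries each), had a log2 fold of -0.10 ± 0.42 (SE, adjusted p = 0.926 in edgeR), and with 11 to 24 reads per library a modest difference was not detectable at this depth. At host level 1 of 3 passed, where 7.13% of 898 tested hosts did (2.78% higher and 4.34% lower in B16F10). This was Gigyf2, with 314, 248 and 275 reads across B16F10 against 755, 675 and 892 in Melan-a (log2 change -0.96 ± 0.20 SE with an adjusted p of 0.0103 in edgeR). Without 1 library at a time it passed only where Melan-a replicate 2 was left out, with adjusted p from 0.0557 to 0.0883 otherwise. Elf2 (log2 change -0.28 ± 0.17 SE with an adjusted p of 0.369 in edgeR) and Nfix (-0.25, SE 0.42, adjusted p = 0.792) did not pass.

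**Figure D3:**
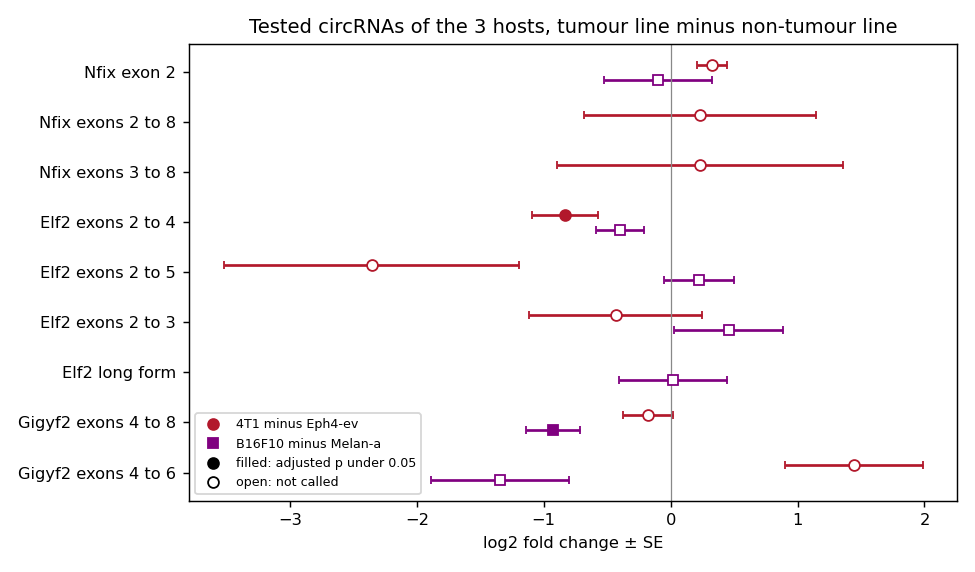
Log2 changes of the tested circRNAs, 4T1 minus Eph4-ev (circles) and B16F10 minus Melan-a (squares). Bars are ± SE from edgeR, filled symbols passed an adjusted p of 0.05 and open ones did not, and the vertical line marks 0. Elf2 exons 2 to 4 at -0.83 and Gigyf2 exons 4 to 8 at -0.93 are the filled symbols, and the open symbols of Gigyf2 exons 4 to 6 lie on opposite sides of 0.

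The second Elf2 circRNA, exons 2 to 5 (chr3:51299783-51326035), adds an exon annotated in a transcript with fewer exons. It had 0, 5 and 0 reads across 4T1 against 24, 24 and 8 in Eph4-ev, and 104, 76 and 79 in B16F10 against 88, 165 and 84 in Melan-a. It thus had reads in a single 4T1 library and many in every library of both melanocyte lines. Its share of Elf2 reads averaged 2.11 ± 3.65% in 4T1 and 4.56 ± 2.35% in Eph4-ev, and 17.6 ± 1.99% in B16F10 and 12.6 ± 1.26% in Melan-a (SD over 3 libraries each). The log2 folds in 4T1 against Eph4-ev were -2.36 ± 1.16 (SE, adjusted p = 0.2 in edgeR) and in B16F10 against Melan-a 0.22 ± 0.27 (SE, adjusted p = 0.698 in edgeR). The first is a fitted value with 2 libraries of 4T1 at 0 and depends on the model's prior count. Without 4T1 replicate 2 it was called (adjusted p = 0.0251 in edgeR), but no 4T1 library then held a read. The circRNA then passed the filter on low counts through Eph4-ev alone, so this call is no support for a difference.

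A shorter circle, Elf2 exons 2 to 3 (chr3:51323222-51326035), stops 1 exon short of the dominant circle. It had 3, 14 and 6 reads across 4T1 against 14, 25 and 26 in Eph4-ev, and 19, 21 and 22 in B16F10 against 8, 35 and 26 in Melan-a. Neither difference passed (log2 change -0.43 ± 0.68 SE with an adjusted p of 0.732 in edgeR in 4T1 against Eph4-ev, and 0.46, SE 0.43, adjusted p = 0.579 in B16F10 against Melan-a). Its share of Elf2 reads was highest in 4T1 replicate 2, at 17.7%, and there the dominant circRNA made up 59 of 79 Elf2 reads, 74.7% (Wilson 95% interval 64.1 to 83.0), below the other libraries of 4T1.

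A long Elf2 form (chr3:51294093-51326035) reaches a donor beyond exon 5, at an exon boundary that no annotated transcript joins to exon 2. It had no read in the 4T1 libraries, where 3 reads over their 77932 junction reads would be 38.5 RPM, and 0, 7 and 0 in Eph4-ev. In the melanocyte lineage it had 26, 22 and 9 reads across B16F10 against 15, 36 and 33 in Melan-a, a log2 fold of 0.02 ± 0.42 (SE, adjusted p = 0.99 in edgeR). Elf2 exons 4 to 5 (chr3:51299783-51308215) had 0, 1 and 0 reads across 4T1 against 0, 6 and 6 in Eph4-ev, and 3, 1 and 2 in B16F10 against 0, 3 and 0 in Melan-a. The 4 circles that start at exon 2 thus held nearly all Elf2 reads, and the 2 of them that reach exon 5 or beyond were mostly found in the melanocyte lineage.

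The second Gigyf2 circRNA, exons 4 to 6 (chr1:87364104-87374111), is 2 exons shorter than the dominant circle. It had 10, 13 and 20 reads across 4T1 against 8, 9 and 13 in Eph4-ev, which were 642, 733 and 448 RPM in 4T1 and 158, 159 and 234 RPM in Eph4-ev. In the other lineage it had 3, 8 and 12 reads across B16F10 against 42, 18 and 26 in Melan-a, which were 150, 472 and 719 RPM in B16F10 and 1675, 536 and 1034 RPM in Melan-a. All 4T1 libraries lay above those of Eph4-ev, while those of B16F10 and Melan-a overlapped. Neither log2 fold passed, in 4T1 against Eph4-ev at 1.44 ± 0.54 (SE, adjusted p = 0.0981 in edgeR) and in B16F10 against Melan-a at -1.34 ± 0.54 (SE, adjusted p = 0.134 in edgeR), though without Melan-a replicate 2 the second was called (adjusted p = 0.0269). Its share of Gigyf2 reads was 8.11 ± 0.631% in 4T1 and 2.90 ± 0.688% in Eph4-ev, and 2.85 ± 1.74% in B16F10 and 3.71 ± 1.61% in Melan-a (SD over 3 libraries each).

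Further Gigyf2 circles had few reads. Exons 4 to 5 (chr1:87364104-87365279) had 4, 0 and 15 reads across 4T1 against 0, 4 and 1 in Eph4-ev, and 3, 1 and 2 in B16F10 against 1, 0 and 4 in Melan-a. Exons 4 to 9 (chr1:87364104-87403846) had 3, 0 and 0 reads across 4T1 against 0, 3 and 4 in Eph4-ev, and 1, 0 and 3 in B16F10 against 2, 4 and 4 in Melan-a. Exons 3 to 6 (chr1:87354404-87374111) had 0, 0 and 11 reads across 4T1 against 2, 0 and 0 in Eph4-ev, and none in B16F10 and 0, 4 and 0 in Melan-a. The larger counts of exons 4 to 5 and exons 3 to 6 came from 4T1 replicate 3, the deepest library of that line.

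The minor circRNAs of Nfix had few reads in every line. Exons 2 to 8 (chr8:84721643-84772315) had 3, 1 and 17 reads across 4T1 against 16, 2 and 9 in Eph4-ev, none in B16F10 and 0, 3 and 1 in Melan-a. Exons 3 to 8 (chr8:84721643-84727967) had 3, 2 and 6 reads across 4T1 against 6, 0 and 11 in Eph4-ev, none in B16F10 and 1, 0 and 0 in Melan-a. The log2 folds in 4T1 against Eph4-ev were 0.23 ± 0.92 for exons 2 to 8 (SE, adjusted p = 0.898 in edgeR) and 0.23 ± 1.12 for exons 3 to 8 (SE, adjusted p = 0.919). Exons 2 to 10 (chr8:84713766-84772315) had 1, 0 and 0 reads across 4T1, 2, 6 and 0 in Eph4-ev and none in B16F10 or Melan-a. Exons 3 to 10 (chr8:84713766-84727967) is listed in the mammary table alone, with none in 4T1 and 0, 0 and 2 reads in Eph4-ev. The other 9 circRNAs, 2 of Elf2 and 7 of Gigyf2, had 0 to 7 reads in a library and were not tested. A row that names Nfix together with a second gene is no member, and had 4 reads in 4T1 replicate 1 and none elsewhere.

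**Figure D4:**
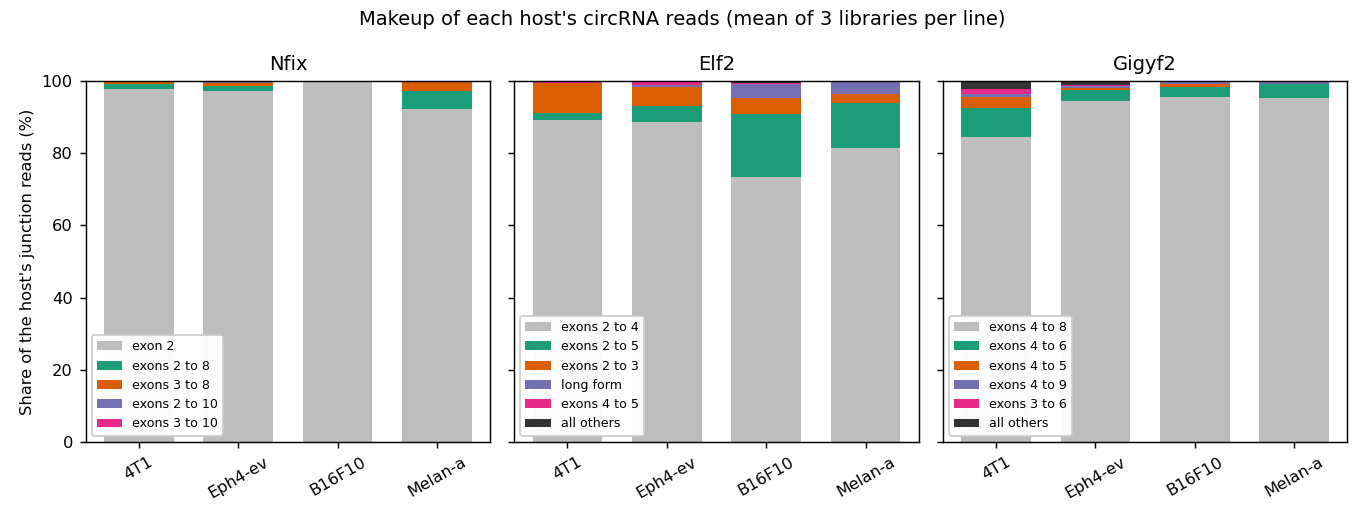
Makeup of the junction reads of each host, as the mean percent over 3 libraries per line. Colours stand for circRNAs, with the dominant one in grey at the bottom and circRNAs beyond the first 5 in black. The grey part is 73.4% of Elf2 reads in B16F10 and 81.4% in Melan-a, and 84.5% of Gigyf2 reads in 4T1 and 94.6% in Eph4-ev.

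The share of the dominant circRNA among the reads of its host does not depend on scaling between libraries. For Gigyf2 it was 84.5 ± 6.69% in 4T1 and 94.6 ± 0.838% in Eph4-ev, a difference of -10.1 percentage points (SD over 3 libraries each, exact two-sided permutation p = 0.1, adjusted over 6 tests 0.2). The dominant circRNA made up 117 of 134, 133 of 149 and 189 of 246 Gigyf2 reads in 4T1, and 347 of 364, 290 of 306 and 341 of 364 in Eph4-ev. The lines did not overlap, and without 4T1 replicate 3 the difference was -6.31 points. The smallest p that 3 against 3 allows is 0.1, so no share could pass.

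For Elf2 the share was 73.4 ± 2.95% in B16F10 and 81.4 ± 1.39% in Melan-a, a difference of -7.99 points (SD over 3 libraries each, exact two-sided permutation p = 0.1, adjusted 0.2). It was 369 of 524, 343 of 467 and 364 of 477 reads in B16F10, and 560 of 675, 983 of 1223 and 610 of 755 in Melan-a, and the lines did not overlap. For Nfix it was 100% in B16F10 and 92.1 ± 3.50% in Melan-a (difference 7.87 points, SD, n = 3, exact permutation p = 0.1, adjusted 0.2). Only 36 Nfix reads were counted in B16F10 in all, and a count of 0 minor reads allows a share of up to 8.33%. The other comparisons overlapped. These were Nfix, 97.8 ± 1.15% in 4T1 and 97.3 ± 1.28% in Eph4-ev (SD over 3 libraries each, exact permutation p = 0.5), Elf2, 89.1 ± 12.6% in 4T1 and 88.6 ± 4.06% in Eph4-ev (p = 1), and Gigyf2, 95.6 ± 2.16% in B16F10 and 95.4 ± 1.27% in Melan-a (p = 1).

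Whether the tumour line differed from its partner in the same way in both lineages was tested as an interaction, the log2 fold of 4T1 over Eph4-ev minus that of B16F10 over Melan-a. Of 7 circRNAs of these hosts that could be tested, 2 were called, where 11.5% of 1403 tested circRNAs were (3.78% above 0 and 7.77% below), and both were minor forms. Gigyf2 exons 4 to 6 had a difference of 2.69 ± 0.80 (SE, adjusted p = 0.0298 in edgeR) and Elf2 exons 2 to 5 one of -2.78 ± 0.85 (SE, adjusted p = 0.0346 in edgeR). The median over all tested was -0.42, and -0.22 under total reads alone. The first call was lost without 4T1 replicate 1 (adjusted p = 0.0591 in edgeR) or 2 (0.065), Eph4-ev replicate 1 (0.0541) or 2 (0.0648), B16F10 replicate 1 (0.113) or 2 (0.0699) or Melan-a replicate 1 (0.118). The second was lost without 4T1 replicate 1 (0.116) or 3 (0.17) or Eph4-ev replicate 1 (0.0717) or 2 (0.102), and with RLE factors (0.0602) or total reads alone (0.051).

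The dominant circRNAs did not pass this test. For Gigyf2 exons 4 to 8 the difference was 0.65 ± 0.31 (SE, adjusted p = 0.177 in edgeR). For Elf2 exons 2 to 4 it was -0.54 ± 0.33 (SE, adjusted p = 0.319 in edgeR), and for Nfix exon 2 it was 0.33 ± 0.36 (SE, adjusted p = 0.629 in edgeR). That of Gigyf2 exons 4 to 8 was called by DESeq2 (0.93, adjusted p = 0.0465) and without Melan-a replicate 2 (0.88, adjusted p = 0.0271 in edgeR). Elf2 exons 2 to 3 had a difference of -1.02 ± 0.79 (SE, adjusted p = 0.45 in edgeR). The long Elf2 form, without a read in 4T1, had one of -3.65 ± 1.92 (SE, adjusted p = 0.236 in edgeR). The calls in 1 lineage, of Elf2 exons 2 to 4 in 4T1 and of Gigyf2 exons 4 to 8 in B16F10, were therefore not shown to differ from the other lineage.

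The relatives of the hosts were read at host level. In the nuclear factor I family, 3 of 4 genes had circRNA reads and were tested in 4T1 against Eph4-ev, with Nfix alone called, where 17.5% of all tested hosts were, and a median log2 fold of 0.90, against -0.09 over all hosts. Nfib averaged 1846 ± 711 RPM in 4T1 and 933 ± 251 RPM in Eph4-ev (SD over 3 libraries each), with a log2 fold of 0.90 ± 0.35 (SE, adjusted p = 0.0867 in edgeR), and Nfia was at 1.19 ± 1.15 (SE, adjusted p = 0.54 in edgeR). In B16F10 against Melan-a, where edgeR called 7.13% of all tested hosts, 4 of 4 had reads and 3 were tested. Of the 3, 0 were called by edgeR or DESeq2, with 0 at an unadjusted p under 0.05. Their median was -0.60, against 0.00 over all hosts. There Nfib, at 1125 ± 371 RPM in B16F10 and 1581 ± 569 RPM in Melan-a (SD over 3 libraries each), stood above Nfix, at 675 ± 85.0 RPM in B16F10 and 746 ± 243 RPM in Melan-a. Its log2 fold was -0.62 ± 0.37 (SE, adjusted p = 0.376 in edgeR), and that of Nfia -0.60 (adjusted p = 0.667).

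Of 26 ETS family genes, 8 had reads and 6 were tested in 4T1 against Eph4-ev, with 1 higher and 1 lower (median log2 fold -0.26), where 17.5% of all tested hosts were called. Ets1, another ETS transcription factor, rose, with 9, 11 and 26 reads across 4T1 against 6, 2 and 7 in Eph4-ev (log2 change 2.50 ± 0.69 SE with an adjusted p of 0.021 in edgeR), while Elf2 fell. The Ets1 call did not hold when 4T1 replicate 3 (0.0558) or Eph4-ev replicate 1 (0.0585), 2 (0.116) or 3 (0.056) was left out, or with libraries thinned to equal depth (0.155). Ets1 passed the filter on low counts only through 4T1, where it is high, so its call is not independent of that filter. Etv6, an ETS repressor, did not pass (1.78, SE 1.00, adjusted p = 0.252). In B16F10 against Melan-a, where edgeR called 7.13% of all tested hosts, 6 had reads and 3 were tested. Of the 3, 0 were called by edgeR or DESeq2, with 0 at an unadjusted p under 0.05 (median -0.39). Besides Elf2 these were Etv6 (-0.66, SE 0.53, adjusted p = 0.51 in edgeR) and Ets1 (-0.39, SE 0.36, adjusted p = 0.607). Elf2 was the host with the highest summed level of all in both melanocyte lines, at 27439 ± 1196 RPM in B16F10 and 31126 ± 4858 RPM in Melan-a (SD over 3 libraries each), where Ets1 stood at 802 ± 35.6 RPM in B16F10 and 992 ± 268 RPM in Melan-a.

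Of 35 genes of GIGYF and 4EHP translation repression and its deadenylation and decapping partners, 25 had reads and 17 were tested in 4T1 against Eph4-ev, with 1 higher and 1 lower (median log2 fold -0.11), a smaller share than the 17.5% called among all tested hosts. Cnot6l, a deadenylase subunit of the CCR4-NOT complex, fell, with 48, 64 and 159 reads across 4T1 against 344, 297 and 362 in Eph4-ev (log2 change -0.99 ± 0.19 SE with an adjusted p of 0.00239 in edgeR). It passed with each library left out in turn, but not with libraries thinned to equal depth (adjusted p = 0.0968). Ago2, the Argonaute that can cut target RNA, rose, with 6, 4 and 24 reads across 4T1 against 4, 2 and 4 in Eph4-ev (2.48, SE 0.82, adjusted p = 0.0471). Ago2 passed the filter on low counts only through 4T1, where it is high, so its call is not independent of that filter. The Ago2 call rested on few reads. It did not hold when 4T1 replicate 1 (0.0739) or 3 (0.256) or Eph4-ev replicate 1 (0.122), 2 (0.184) or 3 (0.138) was left out, nor by DESeq2 (0.0507), without the filter on low counts (0.143) or with the replicate block (0.149). Tnrc6a, a GW182 protein of the microRNA silencing complex, did not pass (-2.30, SE 1.23, adjusted p = 0.226). In B16F10 against Melan-a, 23 had reads, 9 were tested and Gigyf2 alone was called, in the lower direction (median -0.14), where 7.13% of all tested hosts were called. Cnot6l (-0.54, SE 0.34, adjusted p = 0.391 in edgeR) and Cnot2 (-0.43, SE 0.29, adjusted p = 0.427) did not pass.

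Among 172 circRNAs with at least 5 reads in each of the 12 libraries, the level profiles most like those of the 3 dominant circRNAs were sought by Pearson r of log2 RPM. The 12 libraries fall into 2 lineages from 2 tables, which these values mostly follow, and they carry no test. Nfix exon 2 was most like circRNAs of Gm21992 and Rbm4 (one row, r = 0.96), Tns3 (0.93) and Luc7l (0.92), each with higher means in both mammary lines. That of Tns3 averaged 5699 RPM in 4T1 and 6035 RPM in Eph4-ev, and 1017 RPM in B16F10 and 507 RPM in Melan-a. Elf2 exons 2 to 4 was most like circRNAs of Ezh2 (r = 0.86), Fbxw4 (0.86) and Tasp1 (0.85). Gigyf2 exons 4 to 8 was most like those of Kansl1 (0.93) and Phkb (0.89) and the dominant one of Elf2 (0.84). Nfix exon 2 ran against both of the others, with r = -0.96 to Elf2 exons 2 to 4 and -0.89 to Gigyf2 exons 4 to 8.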

How the data were processed

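CircRNA sequencing was done on 12 libraries of 4 lines. Per the labels' protocols, RNase R-treated RNA was sequenced and the circles were called by CIRI2, which reads BWA-MEM output, and by CIRCexplorer2, which reads that of TopHat and TopHat-Fusion. Per the submitters' processing notes the build is mm10; edgeR, DESeq and DESeq2 are named there with no stated use. How the callers were combined and filtered is not given in the sources used here. Per the file headers, the deposited tables hold counts of back-spliced junction reads and RPM. By their values, the authors' RPM divides each count by its column's total (100% gave whole reads within 0.01), so counts were tested and RPM describes levels.

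Each lineage was fitted on its whole table with edgeR 4.0.16 (quasi-likelihood, TMM, filterByExpr with a minimum count of 5 and total of 10, Benjamini-Hochberg adjustment over all tested features) in R 4.3.3. A call is an adjusted p under 0.05, and folds are tumour line minus non-tumour line. SE comes from the F statistic. The interaction used all 12 libraries and circRNAs in both tables. Host counts sum circRNAs with a single host. Shares were compared by exact permutation tests. Exons come from GENCODE M21. Alternatives were RLE factors, total reads, DESeq2 1.42.0, a minimum count of 10, no filter, a replicate block, other share denominators and leaving out each library; limma-voom (limma 3.58.1) with quality weights and thinning were chosen after seeing the data.

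The members and lists were chosen with earlier results of these data known. The naming rule took the dominant circRNA of each host by summed RPM, the 4 next ones, any other tested member, up to 3 tested hosts per list by p, and the 3 most similar profiles. Intervals and floors cover counting error only, since no molecular identifiers are mentioned.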

Additional observations from a re-analysis of the deposited data

Results flagged for a closer look

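Gigyf2 exons 4 to 6 drew attention because its interaction was called, at 2.69 on the log2 scale (SE 0.80, edgeR adjusted p = 0.0298). It had 10, 13 and 20 reads in 4T1 against 8, 9 and 13 in Eph4-ev, and 3, 8 and 12 in B16F10 against 42, 18 and 26 in Melan-a. Elf2 exons 2 to 5 drew attention for the same reason in the other direction, with an interaction of -2.78 (SE 0.85, edgeR adjusted p = 0.0346). It had 0, 5 and 0 reads in 4T1 against 24, 24 and 8 in Eph4-ev, and 104, 76 and 79 in B16F10 against 88, 165 and 84 in Melan-a. Neither circRNA passed within either lineage in the main fit, and 11.5% of all tested circRNAs were called for the interaction. The Gigyf2 call was lost without some single libraries and with a replicate block. The Elf2 call was lost without some single libraries, with RLE factors and under total reads alone.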

How the results depend on the processing

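Of 407 tested folds recomputed under another setting, 339 kept their direction and their side of the threshold, 40 lost a call, 7 gained one and 21 changed sign. Of 146 counts of calls, 87 stayed within 1.5 times and 59 did not, which says nothing of which circRNAs were called. Of 48 differences in share, 41 kept their sign. Where no cause is stated, the cause was not tested. In 4T1 against Eph4-ev, the number of called circRNAs of these hosts was 1, 2 with a minimum count of 10, 2 by limma-voom, 0 after thinning and 0 to 1 when 1 library was left out. Under total reads it was also 1, but Nfix exon 2 in place of Elf2 exons 2 to 4. The log2 fold of Nfix exon 2 passed at 0.56 (total reads), 0.47 (minimum count of 10) and 0.34 (limma-voom) but was 0.042 with no filter (adjusted p = 0.876), and that of Elf2 exons 2 to 4 no longer passed at -0.62 (total reads) and -0.67 (thinned), with -1.36 to -0.69 over left-out libraries. That of Gigyf2 exons 4 to 8 changed sign, to 0.071 (total reads) and 0.19 (thinned). Without a filter it was -0.047 for Nfix exons 2 to 8 and -0.029 for exons 3 to 8, and over left-out libraries -0.83 to 0.89 and -0.37 to 1.00. Of the hosts, 2 were called, but 1 with RLE factors, with no filter, with a replicate block (Elf2 each time) and after thinning (Nfix), and 0 to 2 over left-out libraries. The summed Gigyf2 fold was -0.11 with no filter and -0.075 to 0.16 over left-out libraries.

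In B16F10 against Melan-a, 0 to 2 circRNAs and 0 to 1 hosts were called over left-out libraries, against 1 and 1. Gigyf2 exons 4 to 8 ranged from -1.12 to -0.77. Nfix exon 2 was at 0.033 by limma-voom and from -0.38 to 0.094 over left-out libraries, and its host sum at 0.031 after thinning. The long Elf2 form was at -0.0035 (RLE factors), -0.0049 (DESeq2), -0.036 (limma-voom) and from -0.28 to 0.35 over left-out libraries. For the interaction, 2 circRNAs were called, 1 with RLE factors, total reads or a replicate block, and 0 to 3 over left-out libraries. That of Gigyf2 exons 4 to 8 was called at 0.93 by DESeq2 and ranged from 0.51 to 0.90.

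Over left-out libraries the difference in the dominant share ran from -0.11 to 1.27 points for Nfix and -3.77 to 7.80 for Elf2 in 4T1 against Eph4-ev, and from -0.87 to 1.29 for Gigyf2 in B16F10 against Melan-a. Counting only circRNAs with at least 5 reads, that of Nfix in B16F10 against Melan-a was 0, since only its dominant circRNA then remained.

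Same-numbered libraries had r from -0.06 to 0.07 over the 6 pairs, within the range of differently numbered pairs (-0.12 to 0.11). With so few libraries this cannot show whether replicate numbers share more than a name, and the labels do not say. A replicate block lowered the interaction calls over all circRNAs to 107 from 162, and the adjusted p was 0.0661 for the interaction of Gigyf2 exons 4 to 6 and 0.0725 for the summed Nfix reads in 4T1 against Eph4-ev.

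Over all circRNAs, thinning left 103 calls of 325 in 4T1 against Eph4-ev (hosts 68 of 265), with fewer features tested, and left-out libraries gave 72 to 247 (hosts 73 to 261). In B16F10 against Melan-a they gave 42 to 145 against 95 (hosts 32 to 123 against 64), and 103 to 169 against 162 for the interaction. Calls were 112 higher and 213 lower in 4T1, but 142 and 176 under total reads. Among hosts in B16F10 they were 25 higher and 39 lower, but 36 and 32. Of the 21 minor circRNAs, 8 had over 10 reads in any library.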
